A study of Mus musculus with 8 samples.

Results

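A group of 9 genes is described here in C2C12 cells, an immortalised mouse myoblast line. They are the caveolins *Cav1*, *Cav2* and *Cav3*, the tubule-forming *Bin1*, the ferlins *Dysf* and *Myof*, the annexins *Anxa1* and *Anxa2*, and *Trim72*. They were listed by name for their roles at the muscle membrane, and all 9 were found among the 27179 genes of the expression table and among the 11406 genes tested. Cells on collagen-coated dishes were sampled in 2 states. GM cells were proliferating at 50% confluence in high glucose DMEM with 10% fetal bovine serum. 3d DM cells had passed 90% confluence and then spent 3 days in the same base medium with 2% horse serum. Each state had 2 input libraries (RNA-seq of poly(A) RNA) and 2 libraries immunoprecipitated with an m6A antibody (MeRIP-seq), and no gene was deleted or added in any library. The labels do not say that replicates were separate cultures, so the spread behind the p-values is that between these libraries and may be technical. In the RNA test that spread was pooled over genes of similar level, and p-values do not measure each gene's own spread. The work compares where m6A, the methyl mark on adenosines inside mRNA, lies in dividing and differentiating myoblasts, and how much of each RNA is present.

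Caveolae are flask-shaped pits of the plasma membrane that are built from caveolins and a cavin coat. In muscle, CAV3 takes the place that CAV1 and CAV2 hold in most other cells, and transverse tubules (T-tubules), the inward folds of the surface membrane that carry the action potential to the calcium release sites, grow from caveola-rich and BIN1-curved membrane. When a muscle fibre tears, TRIM72 (also called MG53) brings vesicles to the gap, dysferlin takes part in their calcium-driven fusion, and annexins bind the exposed phospholipids and form a cap over the wound.

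The m6A methyltransferase acts on an adenosine followed by C, most often within GGAC. The sequences below were read from the GRCm38.p6 assembly inside the peak regions on which the m6A results turn. The first 3 come from regions called in 1 state alone, and the others from regions called in both states. The window of the *Cav1* stop codon region lies within the peaks of both GM lists, and outside the peak of 3d DM replicate 1. Each is in the direction of the transcript, and capitals mark the GGACT, the GGAC or, where neither was present, the AGAC, GAAC or AAAC nearest the centre of the stretch that the lists share (for the *Cav1* stop codon region, where no base is shared by its lists, of the stretch in GM replicate 1).
*Cav1* 3′UTR, chr6:17340545-17340564, plus strand, GM lists: aggctgctAAACcgagactg
*Cav3* 3′UTR, chr6:112472684-112472703, plus strand, 3d DM lists: cctcccatGAACcccggcgg
*Trim72* 3′UTR, chr7:128011003-128011023, plus strand, 3d DM lists: agccagcaGGACTctatcaaa
*Cav1* stop codon region, chr6:17339448-17339467, plus strand, GM replicate 1: gatatgagGGACatttcaag
*Anxa2* coding region, chr9:69487612-69487631, plus strand, all lists: gtcaaaggGGACctggagaa
*Myof* coding region, chr19:37939990-37940009, minus strand, all lists: gaacttgaAGACcgggaggg

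The *Trim72* window is the only one of the 6 that holds GGACT. The whole *Cav1* 3′UTR region (392 nt) and the whole *Cav3* 3′UTR region (327 nt) hold 0 GGAC words, which says only that these letters are not there. Of the 13 regions on the 9 genes with at least 150 exonic nt, 4 held GGAC and 0 held GGACT in their central 150 nt. Over all 14679 merged regions of that length 52.5% held GGAC, in which the longer word is counted too. GGACT was held by 19.1%. A share of 86.8% held one of AGAC, GAAC and AAAC. Words were searched on the transcript strand only.

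The genes lie on 5 chromosomes of mm10. *Cav2* (chr6:17281185-17289115), *Cav1* (chr6:17306335-17341452), *Dysf* (chr6:84008590-84211060) and *Cav3* (chr6:112459505-112472872) are on the plus strand of chromosome 6. *Trim72* (chr7:128003949-128011033), *Anxa2* (chr9:69453620-69491795) and *Bin1* (chr18:32377230-32435737) are also on the plus strand. *Anxa1* (chr19:20373428-20390944) and *Myof* (chr19:37899036-38043577) are on the minus strand.

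Of the 9 genes, 4 had higher RNA in 3d DM (*Cav3*, *Trim72*, *Dysf* and *Bin1*) and 3 had lower RNA (*Cav2*, *Anxa1* and *Anxa2*). The other 2, *Cav1* and *Myof*, did not pass the test. Over all tested genes, 7.01% passed in the higher direction and 9.96% in the lower direction, at an adjusted p of 0.05 from limma on log2(value + 1). *Cav3* entered the test through its 3d DM libraries alone. With the filter in at least 3 libraries it was not tested, and 3 of 8 were higher and 3 lower. Over all genes 524 were then higher and 912 lower, of 10769 tested. Values are the deposited TMM-normalized values, which are not divided by gene length, and log2 fold changes are 3d DM minus GM. Both 3d DM libraries lay above both GM libraries for 4 of the 9 genes, beside 16.8% of tested genes, and below them for 4, beside 37.0%. In bulk samples, fewer cells of a type and less RNA per cell cannot be told apart.

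The median log2 fold change of all tested genes was −0.22, and −0.23 for the 9 genes. Relative to that shift the changes were 7.21 for *Cav3*, 6.82 for *Trim72*, 4.64 for *Dysf*, 1.80 for *Bin1*, −0.58 for *Cav1*, −1.36 for *Anxa1*, −1.38 for *Anxa2* and −1.39 for *Cav2*. With median-of-ratios scaling, which removes the shift, the share of higher genes among all calls moved from 41.3% (800 of 1936) to 51.6% (1365 of 2646), and the same 7 of the 9 genes passed. *Myof* sat on the median, so its sign depended on the scaling.

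**Figure D1:**
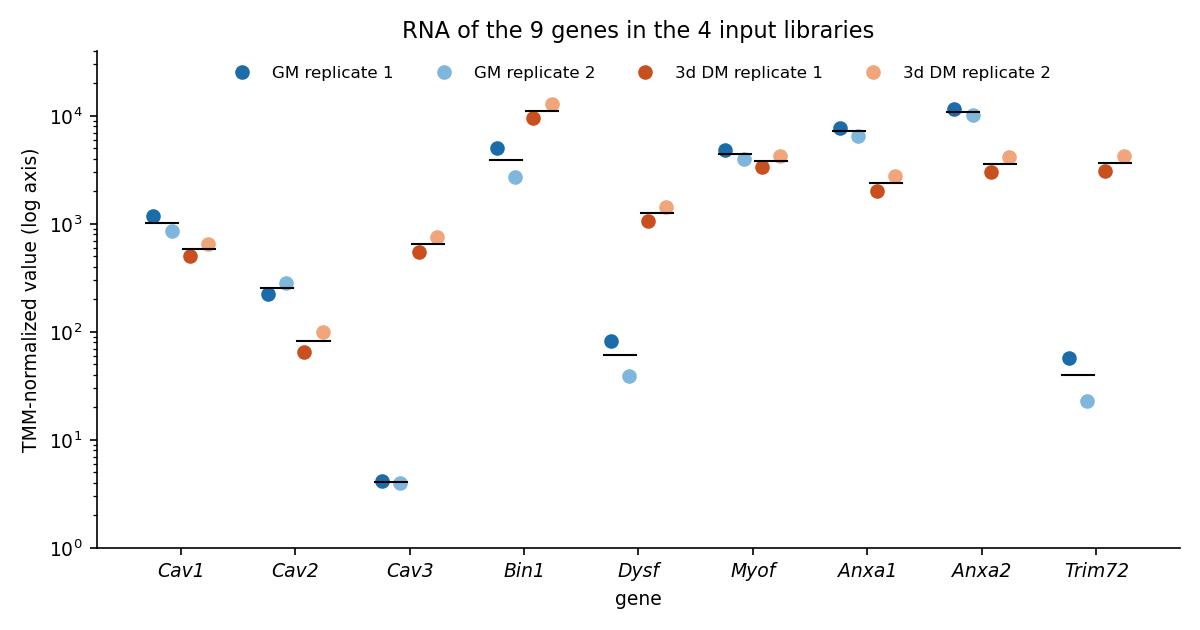
TMM-normalized RNA value (log axis) of each of the 9 genes in the 2 GM (blue) and 2 3d DM (orange) input libraries, with a bar at the mean of each state. *Cav3*, *Dysf* and *Trim72* rose from values of 4.01 to 82.2 in GM to values of 548 to 4257 in 3d DM, and the replicates overlap between states for *Myof* alone.

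The state of the cells was checked with genes of proliferation and differentiation. *Myog*, a myogenic transcription factor of early differentiation, was higher in 3d DM (log2 fold change 4.06), as were the embryonic myosin *Myh3* (6.26) and the creatine kinase *Ckm* (5.38), while the proliferation marker *Mki67* was lower (−2.63). The GM libraries were not alike in muscle genes. The summed level of the myotube markers *Myog*, *Myh3*, *Ckm* and *Acta1* was 3819.6 in GM replicate 1 and 951 in GM replicate 2, against 75326 and 111119 in the 3d DM libraries. Their part in the results below was not tested. Of the myoblast markers, *Des* was higher (1.36), *Myf5* was lower (−2.14), and *Myod1* (−0.10) and *Pax7* (0.26) did not pass the test. Adipocyte markers (*Adipoq*, *Plin1*, *Cidec*, *Lep*) and endothelial markers (*Pecam1*, *Cdh5*, *Kdr*, *Tie1*), 2 cell types rich in *Cav1*, summed to 1.5 or less in every library, and none of the 8 passed the filter. Macrophage markers summed to 11.5 to 26.4, nearly all of it *Cd68*, with *Adgre1* listed at 0. Fibroblast markers summed to 36.2 to 102, nearly all of it *Pdgfra*, with *Thy1* listed at 0.

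The caveolins changed in opposite directions. *Cav3*, the muscle caveolin, measured 4.19 and 4.01 in the GM libraries and 548 and 756 in the 3d DM libraries. Both 3d DM libraries were far above both GM libraries, and the means (4.10 ± 0.123 and 652 ± 147, SD, n = 2 each) differed 159-fold. The log2 fold change, for which 1 (the pseudocount) was added to each value, unlike in that ratio, was 6.98 ± 0.56 (SE; adjusted p = 4.11e-33). It was 7.26 with a pseudocount of 0.1 and 6.32 with 4. *Trim72* had 6.64 and 6.48 there, so the order of these 2 genes depended on the pseudocount. Both GM values were below the filter of 25.07, so *Cav3* entered the test through its 3d DM libraries alone and had to differ.

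*Cav2*, which assembles with CAV1, measured 223 and 282 in the GM libraries, and 65.61 and 100.05 in the 3d DM libraries. The groups did not overlap, and the mean was 3.05-fold lower in 3d DM (252 ± 41.9 and 82.8 ± 24.4, SD, n = 2 each). Its log2 fold change was −1.62 ± 0.49 (adjusted p = 0.00845). The call was lost when any 1 library was left out (adjusted p = 0.0675 to 0.307).

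*Cav1*, the main scaffold of caveolae outside muscle, had values of 1178 and 851 in GM against 502 and 656 in 3d DM. Both 3d DM libraries were below both GM libraries, but the difference did not pass the test (log2 fold change −0.80 ± 0.43, 95% interval −1.65 to 0.05, adjusted p = 0.228). In this fit a change of the size of that in *Cav2* lay inside the interval. With median-of-ratios scaling the change was −0.57 ± 0.18 for *Cav1* (adjusted p from limma = 0.0665) and −1.39 ± 0.27 for *Cav2*. The difference between the 2 genes was not tested. Per kb of exon, *Cav1* remained the more abundant of this pair, at 316 against 75.7 in GM and 180.5 against 24.8 in 3d DM. *Cav3* passed from the lowest level per kb of the 3 caveolins in GM (3.55) to the highest in 3d DM (563.5).

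*Bin1*, whose BAR-domain protein curves membrane into T-tubules, was already abundant in GM, with values of 5018 and 2729, and measured 9604 and 12754 in 3d DM. The groups did not overlap, although GM replicate 1 was 1.84-fold above GM replicate 2. The mean was 2.89-fold higher in 3d DM, and the log2 fold change was 1.58 ± 0.40 (adjusted p = 0.00104). Leaving out GM replicate 2 brought it to 1.14 (adjusted p = 0.222), and the call was also lost without 3d DM replicate 1 (adjusted p = 0.12) and without 3d DM replicate 2 (adjusted p = 0.137).

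The ferlins, large C2-domain proteins of membrane fusion, differed from each other. *Dysf* stood at 82.2 and 39.2 in GM, and in 3d DM at 1069.5 and 1429.7, a 20.6-fold higher mean. The groups were far apart, and the log2 fold change was 4.42 ± 0.46 (adjusted p = 1.75e-19). *Myof*, the ferlin of myoblast membranes, had GM values of 4848 and 3997 and 3d DM values of 3329 and 4248. These groups overlapped (log2 fold change −0.23 ± 0.41, 95% interval −1.03 to 0.57, adjusted p = 0.809). Despite the rise of *Dysf*, *Myof* stayed the more abundant ferlin per kb of exon, at 605 against 8.42 in GM and 518 against 173 in 3d DM.

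Both annexins fell. *Anxa1*, a phospholipid-binding protein of the repair cap, went from 7755 and 6567 in GM to 2023 and 2797 in 3d DM (log2 fold change −1.58 ± 0.41, adjusted p = 0.00113). *Anxa2*, which forms a tetramer with S100A10, went from 11464 and 10169.8 to 3027 and 4162 (log2 fold change −1.60 ± 0.40, adjusted p = 0.000845). The groups of neither gene overlapped, and the means were 2.97-fold and 3.01-fold lower in 3d DM. The *Anxa1* call was lost without GM replicate 1 (adjusted p = 0.123), GM replicate 2 (adjusted p = 0.0507) or 3d DM replicate 1 (adjusted p = 0.106), and the *Anxa2* call without GM replicate 1 (adjusted p = 0.074) or 3d DM replicate 1 (adjusted p = 0.109).

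*Trim72*, the muscle E3 ligase that starts membrane resealing, was found at 57.01 and 23.1 in the GM libraries, with 3087 and 4257 in the 3d DM libraries. The groups were far apart and the mean was 91.7-fold higher in 3d DM. Its log2 fold change was 6.60 ± 0.45 (adjusted p = 8.96e-45). The size of such p-values depended on the scaling, and is not a measure of the strength of evidence from 4 libraries. With median-of-ratios scaling the adjusted p from limma was 0.00106 for *Trim72*, 0.000809 for *Cav3* and 0.00129 for *Dysf*. The log2 fold change of *Trim72* was then 6.83 ± 0.35, neither smaller nor with a larger SE than in the main fit. GM replicate 1, which had the higher level of myotube markers, was 2.47-fold above GM replicate 2, itself below the filter. *Dysf* and *Trim72* passed the test in all 12 alternatives.

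Per kb of exon, the order of the 9 genes changed between states. In GM it ran *Anxa2* (6188), *Anxa1* (3783), *Bin1* (1514), *Myof* (605), *Cav1* (316), *Cav2* (75.7), *Trim72* (17.9), *Dysf* (8.42) and *Cav3* (3.55), and the replicate ranges of neighbours overlapped only for *Trim72* and *Dysf*. In 3d DM *Bin1* led (4368), followed by *Anxa2* (2056), *Trim72* (1644), *Anxa1* (1273), *Cav3* (563.5), *Myof* (518), *Cav1* (180.5), *Dysf* (173) and *Cav2* (24.8). The ranges of *Anxa2* and *Trim72*, *Trim72* and *Anxa1*, *Cav3* and *Myof*, and *Cav1* and *Dysf* overlapped there.

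Genes of the same systems were read from the same test. They were chosen by role with earlier results of these data known, so counts and medians per list may carry that choice. Of 42 companion genes, 41 were in the table and 37 were tested: 11 were higher in 3d DM, 4 were lower and 22 did not pass, with a median log2 fold change of −0.11. These are set beside 7.01% higher and 9.96% lower over all tested genes. With median-of-ratios scaling 13 were higher and 7 lower, and with trimmed-mean scaling 13 and 6. With the replicate number as a block 9 were higher and 1 lower. In the caveola coat and neck, 2 of 8 were higher and none lower, although *Cavin3* and *Ehd2* (named after their values were seen) passed as lower under both other scalings (adjusted p = 0.0432 and 0.0204 with median-of-ratios). They were *Cavin4*, the muscle cavin (440.6 and 310.1 in GM, 3679 and 4917 in 3d DM, log2 fold change 3.52 ± 0.42, adjusted p = 7.72e-15), and *Pacsin3*, an F-BAR protein (2.25 ± 0.43, adjusted p = 4.14e-06). The median of these 8 was −0.43.

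The T-tubule and triad genes had the largest median of these lists (1.99), with 5 of 9 higher and none lower. The choice of genes limits what this order of lists can show. *Cacna1s*, the voltage sensor of the tubule membrane, had 61.4 and 13.1 in GM, with 1775 and 2348 in 3d DM (6.11 ± 0.47). *Ryr1*, the calcium release channel facing the voltage sensor, changed by 4.55 ± 0.42, and *Jph1*, a junctophilin that ties the tubule to the sarcoplasmic reticulum, by 2.73 ± 0.45. GM replicate 1 was above GM replicate 2 by 4.69-fold for *Cacna1s* and 3.48-fold for *Ryr1*, and below it for *Jph1* (128 and 161).

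Of the other annexins, 2 of 7 were higher and 2 lower. *Anxa8* (3.05 ± 0.42) and *Anxa11* (1.49 ± 0.42) rose, and *Anxa5* fell by 1.20 on the log2 scale (SE 0.42, adjusted p = 0.0315). Of 13 repair partners tested, 2 were higher and 2 lower. *Capn3*, the muscle calpain, changed by 3.50 ± 0.48 and *Ano5*, an anoctamin whose loss causes a muscular dystrophy, by 1.58 ± 0.47, while *S100a10*, the ANXA2 partner, was lower (−1.63 ± 0.41, adjusted p = 0.000731). Below the filter were *Syt7* (1.68 to 13.0) and the other ferlins in the table, with *Otof* listed at 0, *Fer1l4* at 1.07 or less and *Fer1l6* at 6.01 or less. Among the companion genes named here, *Cavin4*, *Jph1* and *Anxa8* kept their call without any 1 library. *Cacna1s* (adjusted p = 0.0511) and *Ryr1* (0.0524) lost it without 3d DM replicate 1, and *Capn3* without either 3d DM library (up to 0.0942). *Pacsin3* (up to 0.07), *Ano5* (up to 0.856) and *S100a10* (up to 0.234) lost it in 3 of the 4 such fits, and *Anxa11* (up to 0.441) and *Anxa5* (up to 0.497) in all 4. The block also ended the calls of *Ano5* (adjusted p = 0.0514), *Anxa11* (0.0624) and *Anxa5* (0.187). *Ano5* did not pass under either other scaling (adjusted p from limma = 0.0675 with median-of-ratios and 0.0702 with trimmed-mean). *Anxa11* (0.00464 with median-of-ratios) and *Anxa5* (0.0118) passed under both.

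**Figure D2:**
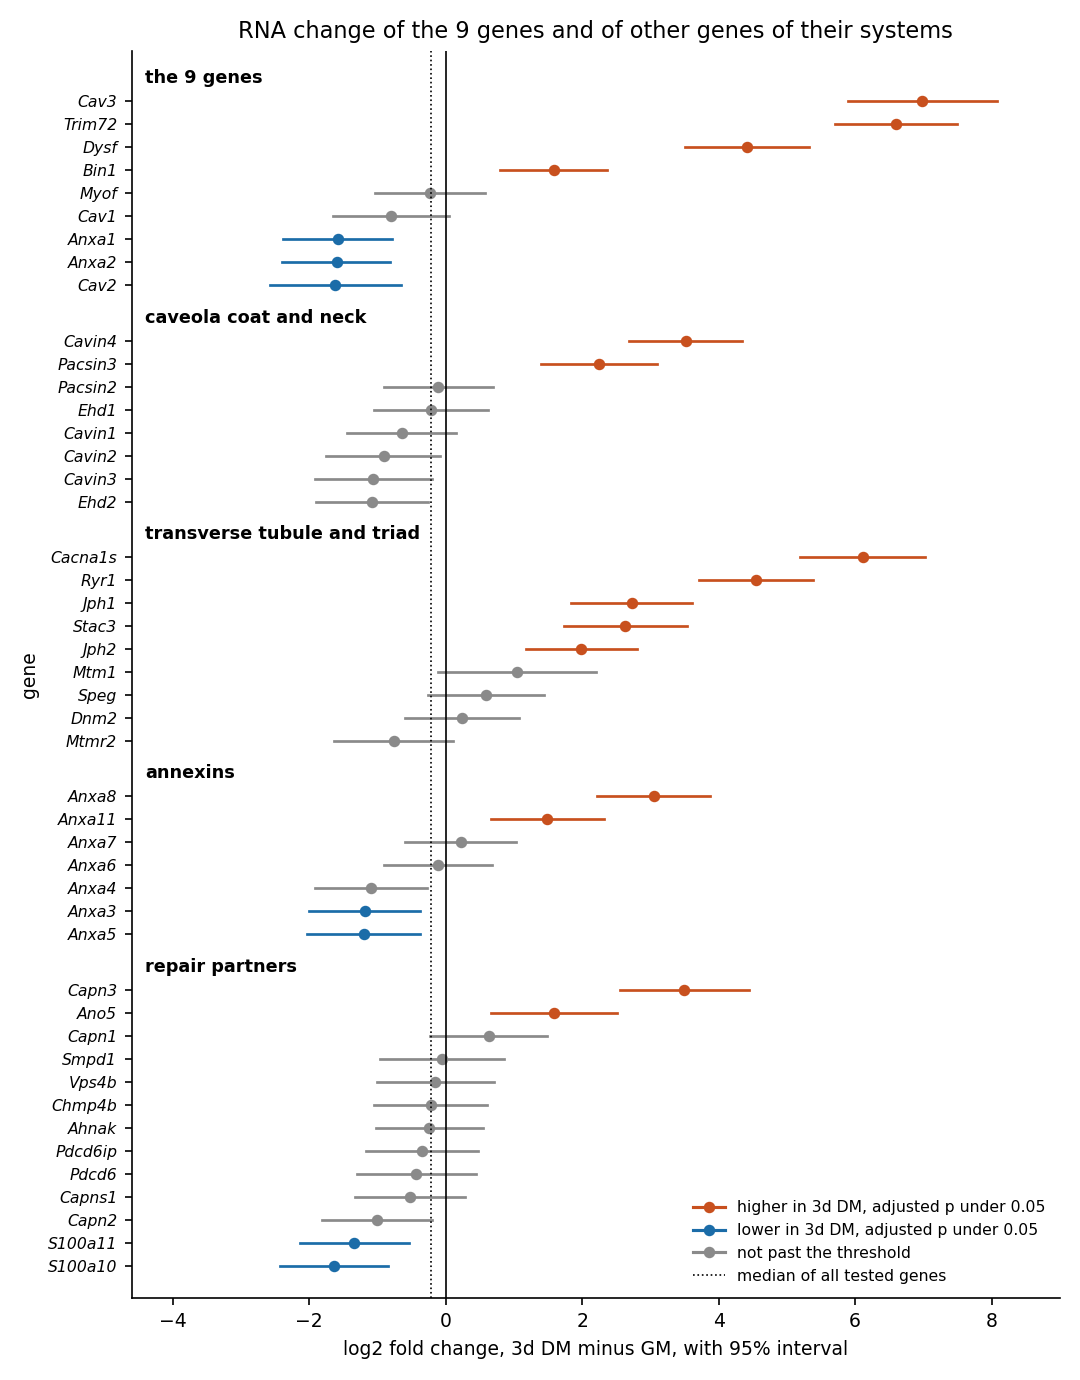
Log2 fold change of RNA, 3d DM minus GM, with its 95% interval from limma, for the 9 genes and the 37 companion genes tested, grouped by role and coloured by whether they passed an adjusted p of 0.05. T-tubule and triad genes lie mostly to the right, as do *Cav3* (6.98), *Trim72* (6.60) and *Dysf* (4.42), and the dotted line marks the median of all tested genes (−0.22).

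The tested genes whose pattern over the 4 libraries was nearest to each caveolin were found by Euclidean distance of centred log2(value + 1). Nearest to *Cav1* were *Dipk1a* (distance 0.0383) and *Rhog* (0.0443), with 533 genes within 0.3. Nearest to *Cav2* were *Xpo1* (0.0215) and *Cit* (0.0504), with 138 genes within 0.3. *Cav3* had 2 genes within that distance, *Rbfox1* (0.124) and *Limch1* (0.27), both listed at 0 in GM, where the distance depends on the pseudocount.

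Peaks of m6A were called by the authors in each immunoprecipitated library against its own input. The 4 lists held 77 lines on the 9 genes (a line is 1 peak on 1 transcript), with 23 and 16 in the GM lists, 20 and 18 in the 3d DM lists, which merged into 15 regions. *Bin1*, *Myof* and *Anxa2* had a peak in all 4 lists, beside 42.0% of tested genes. *Cav1* had one in 3 lists, *Cav3*, *Anxa1* and *Trim72* in 2, and *Cav2* and *Dysf* in none, beside 24.9% of tested genes. The fold enrichments (immunoprecipitated over input RNA) were low: the median over the lines of these genes was 1.94 and 1.92 in the GM lists, then 1.65 and 1.96 in the 3d DM lists, against 4.37, 3.91, 3.70 and 4.07 over all lines, and no line of theirs reached 4. Of the 77 lines, 47 lay in coding sequence, 22 in 3′UTRs, 7 across the end of the coding sequence and 1 across its start.

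*Cav3* and *Trim72* carried peaks in both 3d DM lists and in neither GM list, a pattern of 1.72% of tested genes and of 14.1% of the 800 genes with higher RNA in 3d DM. On *Cav3* the region (chr6:112472546-112472872) lay in the 3′UTR, with fold enrichments of 2.00 and 3.44. It began 158 nt and 69 nt past the stop codon in the replicates and ran to the end of the annotated transcript, 395 nt past it. On *Trim72* the shared 3′UTR region (chr7:128010648-128011033) had fold enrichments of 2.04 and 2.46, began 277 nt and 188 nt past the stop codon and also ran to the transcript end, 573 nt past it. *Trim72* had further regions in 1 list each, in coding sequence in 3d DM replicate 1 (1.51 and 1.52 on its 2 transcripts) and across the stop codon in 3d DM replicate 2 (1.65). RNA of both genes was low in GM, with values of 4.01 to 57.01, and the part of that low level in the lack of GM peaks was not tested.

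On *Cav1*, 1 of 2 regions showed the reverse, while the gene as a whole had a peak in 3 lists. A 3′UTR region (chr6:17340345-17340736) was called in both GM lists, with fold enrichments of 2.37 and 2.27, and in neither 3d DM list, a pattern of 3.83% of all 19516 merged regions. The opposite pattern, as on *Cav3* and *Trim72*, held for 2.72%. On the transcript with the longest 3′UTR the GM peaks spanned 895 to 1253 nt and 955 to 1283 nt past the stop codon. The region around the *Cav1* stop codon (chr6:17339363-17340195) was called in GM replicate 1 (median fold 3.07), GM replicate 2 (1.71) and 3d DM replicate 1 (2.24), and not in 3d DM replicate 2. The GM replicate 2 peak there was on a transcript with a 3′UTR of 66 nt, and did not reach the bases of the 3d DM peak. *Cav1* RNA was 1178 and 851 in the GM libraries against 502 and 656 in the 3d DM libraries. The part of RNA level in these calls was not tested.

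**Figure D3:**
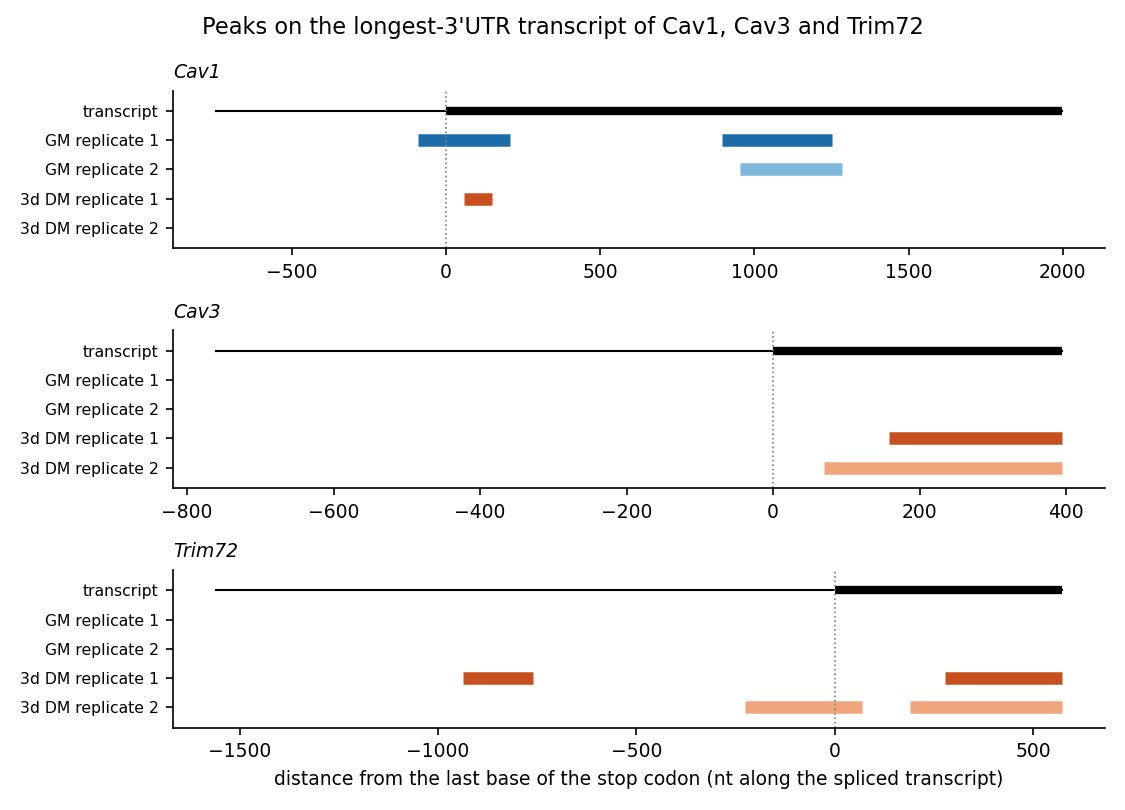
Peaks of each list on the transcript with the longest 3′UTR of *Cav1*, *Cav3* and *Trim72*, in nt along the spliced transcript from the last base of the stop codon (each panel has its own scale). The thin line is the 5′UTR and coding sequence and the thick line the 3′UTR. The distal *Cav1* 3′UTR peaks, between 895 and 1283 nt, are in GM alone, while 3d DM replicate 1 has a *Cav1* peak at 60 to 149 nt. The *Cav3* and *Trim72* peaks are in 3d DM alone, and their shared 3′UTR peaks reach the transcript end at 395 and 573 nt.

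Of the 15 regions, 4 were called in all lists, so that their fold enrichment could be compared between states. At the *Bin1* 3′UTR region (chr18:32435377-32435736) the fold was 2.12 and 2.13 in the GM lists, and 1.36 and 2.09 in the 3d DM lists. Both 3d DM values were below both GM values, though 3d DM replicate 2 nearly reached them (log2 difference −0.33 ± 0.42, 95% interval −1.29 to 0.62, adjusted p = 0.997). The *Bin1* coding regions merged into 1 stretch with folds of 1.505 and 1.625 in GM, against 1.57 and 1.825 in 3d DM (0.11 ± 0.40). In the *Myof* coding region (chr19:37936359-37949555) they were 2.46, 2.25, 1.65 and 2.31 (−0.27 ± 0.42), and in the *Anxa2* coding region (chr9:69483828-69491484) 1.21, 1.16, 1.18 and 1.46 (0.14 ± 0.41). Replicates overlapped between states in these last 3, and each adjusted p was 0.997. The limma test called 0 of the 5976 regions present in all lists (0%), with 3.88% at an unadjusted p under 0.05.

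The other regions did not repeat between replicates of a state. *Anxa1* had a 3′UTR region in 3d DM replicate 2 alone (chr19:20373428-20373607, fold 2.71), and a region in its 5′ part in GM replicate 1 (1.94) and 3d DM replicate 2 (1.84). *Anxa2* had a 3′UTR region in GM replicate 2 (1.13) and 3d DM replicate 2 (1.48). *Myof* had a coding region in GM replicate 1 alone (1.61) and another in 3d DM replicate 1 alone (2.1). *Dysf*, with a union of exons of 7207 nt, had no peak in any list, as had 27.0% of the genes with higher RNA in 3d DM. Its RNA was 148 and 198 per kb of exon in the 3d DM libraries, and the part of RNA level was not tested.

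**Figure D4:**
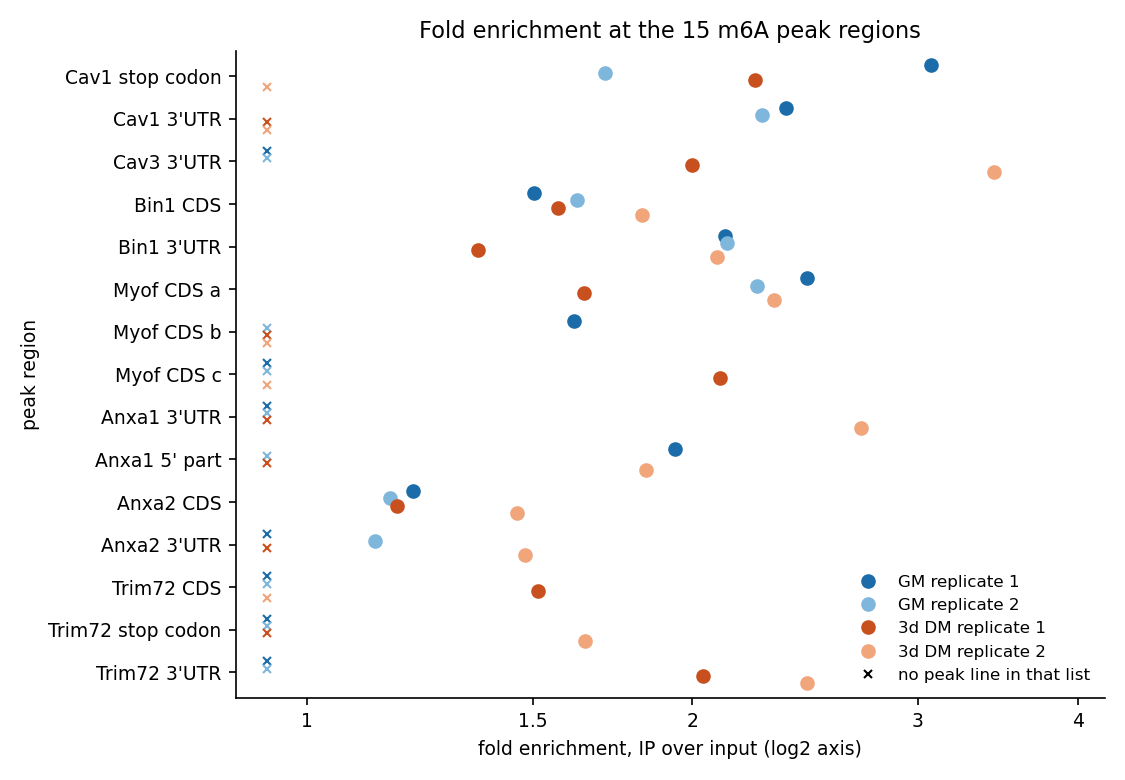
Fold enrichment (log2 axis) at the 15 m6A peak regions of the 7 genes that had any, for each of the 4 lists, with crosses at the left where a list had no peak line. Letters a to c number the *Myof* coding regions. The *Cav1* 3′UTR region is in the GM lists alone (2.37 and 2.27), the *Cav3* (2.00 and 3.44) and *Trim72* (2.04 and 2.46) 3′UTR regions in the 3d DM lists alone, and 4 regions are in all lists.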

How the data were processed

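Input and immunoprecipitated RNA of C2C12 cells in GM and 3d DM (2 libraries each) were grouped by their labels. The authors used HISAT2 (v2.1.0) for alignment to mm10, and exomePeak for peaks in each library over its matching input, at a stated p-value of 0.05 or less, on protein-coding transcripts. The deposited peak lines hold a p-value and a fold (ratio of IP to input). The authors deposited expression as a signal per Entrez gene, TMM-normalized, for which they used edgeR. The counting tool and annotation are not given in the sources used here. Column totals were nearly equal (12534657 to 12536233) and are not depths. Depth is unknown, so no counting error is given. Per the labels the library kit is stranded.

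The genes and lists were chosen with earlier results of these data known. All 9 genes are named, with at most 3 companion genes per role that passed with the largest absolute log2 fold change, those below the filter, the 2 genes nearest each caveolin, and the state and cell type markers. Symbols were matched by Entrez identifier (93.0% of the table). One listed gene, *Fer1l5*, was not found, and 1 further gene of the T-tubule list is not reported here. Genes with 2 cpm of the column total (25.07) in at least 2 libraries entered limma (3.58.1, in R 4.3.3). Its input was log2(value + 1), its variance prior followed the intensity trend, and p-values were adjusted by Benjamini-Hochberg. Standard errors followed the trend and not each gene's own replicates. A count test was not run because values were not whole reads. Lengths are unions of GENCODE M21 exons.

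Peak lines were merged where exonic blocks shared at least 1 bp on a strand (112768 lines, 19516 regions), and a list's fold at a region is the median of its lines. Regions in all lists were tested with limma on log2 fold. An exact two-sided permutation test of 2 against 2 cannot go under 0.33 and was not used. Positions were taken on the line's own transcript for 56 of the 77 lines, where its length matched. Python 3.11.15 was used elsewhere. Alternatives covered the filter, pseudocount, scaling, trend, replicate block, peak thresholds, merging and leaving out each library.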

Additional observations from a re-analysis of the deposited data

How the results depend on the processing

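Filters, pseudocounts, scalings, the trend and the replicate block left 6 or 7 of the 9 genes past the threshold. Leaving out 1 library at a time gave 3 to 5 of the 9 genes, against 7. Without GM replicate 1 or GM replicate 2 it gave 4, and without 3d DM replicate 1 it gave 3. For the companion genes the count was 4 to 10 against 15, with 9 without GM replicate 2, 4 without 3d DM replicate 1 and 5 without 3d DM replicate 2. Over all genes it was 145 to 1252 against 1936, with fewer samples and hence fewer residual degrees of freedom in each of these fits, in which the lone library of a state is assumed to vary like the other state. *Dysf* and *Trim72* passed in each. The fits with 1 library left out used the deposited values, in which replicates of a state were not level. *Cav3* could not be tested under the filter in 3 libraries. The sign of *Myof* reversed under median-of-ratios scaling (0.00).

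Same-numbered libraries deviated together with a correlation of 0.29, from 2 pairs, which does not establish a pairing. With the replicate number as a block 1298 genes passed, with 6 of the 9 genes (*Cav2* had an adjusted p of 0.0501) and 10 companion genes against 15. For fold enrichment the block called 1 region over all genes, against 0, and 0 on these genes.

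The 3 genes with a peak in all 4 lists became 2 at a p-value of at most 1e-05 and 0 at a fold of at least 4, which none of their lines reaches, and were 3 to 4 when a list was left out. Regions of these genes called different stayed at 0 under each alternative. The *Bin1* coding region reversed to −0.03 with the highest fold of a list's lines, and the *Anxa2* coding region, at −0.01 to 0.30 with 1 list left out, to −0.01 without 3d DM replicate 2. The *Bin1* 3′UTR difference of −0.33 became −0.02 without 3d DM replicate 1 and −0.64 without 3d DM replicate 2, and that of *Myof*, −0.27, became −0.02 and −0.51. The causes were not tested.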

Other observations

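Of the 42 companion genes, 23 had an m6A peak in all 4 lists, 11 in 1 to 3 lists and 8 in none. Among the 8 were *Syt7*, *Otof*, *Fer1l4*, *Fer1l5* and *Fer1l6*, which were not in the RNA test. Over tested genes alone, 42.0% had a peak in all 4 lists and 24.9% in none, so the sets differ. In the caveola coat and neck 7 of 8 had a peak in all lists, among them *Cavin4*, with 2 and 3 lines in GM and 2 in each 3d DM list, and *Pacsin3*, with 10 to 18 lines. Of the annexins 5 of 7 did, *Anxa8* and *Anxa5* among them, while *Anxa11* had none.

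In the T-tubule and triad list 4 of 9 had a peak in all lists, *Jph1* among them, and 4 in some, beside 42.0% of tested genes in all lists. *Cacna1s* (15 and 12 lines) had lines in the 3d DM lists alone, like *Cav3* and *Trim72*. That pattern held for 1.72% of tested genes and 14.1% of those with higher RNA in 3d DM. *Ryr1* had 22 and 24 lines in 3d DM against 0 and 6 in GM. Of 14 repair partners 7 had a peak in all lists, beside the same 42.0%. *Capn3* had 12 lines in each 3d DM list against 0 and 1 in GM, *Ano5* had 3 lines in 3d DM replicate 1 alone, and *S100a10* had 1 line in 3d DM replicate 2 alone. These genes are also among those whose RNA differed between states, and the part of RNA level in the peak calls was not tested.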
